A study of Mus musculus with 29 samples.

Results

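Alcohol feeding was compared with the diet without alcohol in non-tumour liver of mice whose label gives the genotype IL17RA-/-. The labels call the treatments HFD_alcohol, written alcohol here, and HFD. The comparison rests on 5 alcohol libraries and 3 HFD libraries, 8 of the 29 RNA sequencing libraries of the series. Its members are all genes at 1 CPM (each gene's count scaled to a common library total) or more in at least 3 of the 8 libraries, which kept 12435 of the 22187 gene IDs listed. All mice of these groups, controls included, were C57BL/6 and had received the liver carcinogen DEN (diethylnitrosamine) by intraperitoneal injection, 25 mg/kg at 2 weeks of age, and feeding lasted 18 weeks. On diet the sources differ, since the design text describes a liquid ethanol diet with pair-feeding and the sample labels say HFD. The sources name neither age at sampling nor sex nor the cells that carry the deletion. Nothing states which libraries came from separate animals, so a p-value here reflects only how far single libraries differ, which may be technical.

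Il17ra encodes the receptor subunit through which IL-17A and IL-17F signal. In liver it is found on hepatocytes, macrophages and stellate cells, and its signal induces chemokines, acute phase proteins and neutrophil-attracting genes. Ethanol is oxidised in hepatocytes by alcohol dehydrogenase and the cytochrome Cyp2e1 to acetaldehyde and then, by aldehyde dehydrogenases, to acetate. Chronic alcohol is known for fat accumulation in hepatocytes, and the enzymes that make fatty acids and sterols are controlled by the SREBP transcription factors.

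The labels were checked first. Il17ra was at 36.1, 16.5 and 20.9 CPM in HFD replicates 1 to 3 and at 30.8, 20.1, 37.0, 15.9 and 26.9 CPM in alcohol replicates 1 to 5. In WT non-tumour liver Il17ra was at 16.1 to 42.5 CPM. The label's deletion is therefore not visible as lost Il17ra RNA in any of the 8 libraries, and reads from outside a deleted part would not show it. Mug2, a protease inhibitor gene on the same chromosome, was at 25.6, 776 and 1184 CPM in HFD replicates 1 to 3, and at 25.4, 39.7, 75.9, 1282 and 1454 CPM in alcohol replicates 1 to 5. In tumours Mug2 separated the genotype labels, at most 209 CPM in labelled and at least 1009 CPM in WT tumours, which gave a divide to set the non-tumour libraries against. Of the labelled HFD libraries 1 lay at or below the labelled tumours, 1 at or above the WT tumours and 1 between, and of the labelled alcohol libraries 3 lay low and 2 high. WT non-tumour liver was divided too, with 1 low and 2 high on HFD and 3 low and 2 high on alcohol, so in non-tumour liver Mug2 did not separate the labels. Klrb1b, another chromosome 6 gene, was at 0, 2.15 and 21.6 CPM on HFD and at 0, 0, 0.148, 1.69 and 4.14 CPM on alcohol. "Labelled" and "WT" in what follows refer to the labels alone.

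Tissue identity was checked with hepatocyte and tumour genes. Alb, the albumin gene, was at 27330.5 to 58784 CPM in the 8 libraries, the level of an abundant transcript. Afp, an oncofetal protein of liver tumours, was at 0.873, 8.60 and 155 CPM in HFD replicates 1 to 3 and at 3.53, 0.976, 8.02, 7.59 and 32.4 CPM in alcohol replicates 1 to 5. Gpc3, another such marker, was at 4.48, 4.94 and 263 CPM on HFD and at 1.92, 1.26, 1.63, 6.04 and 27.8 CPM on alcohol. HFD replicate 3, although labelled non-tumour, was thus far above the others in both markers. It lay within the range of the labelled tumours, 105 to 559 CPM in Afp and 143 to 342 CPM in Gpc3. Its Alb of 58784 CPM lay below theirs, 93661 CPM or more. Ttr, another hepatocyte gene, was at 3252 CPM in it and at most 2363 CPM in them. Whether this library holds tumour tissue was not tested. Recovered depth was 4653423 to 9660583 counts per library.

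Alcohol replicates 2 and 4 stood apart from the other libraries. The first principal component of the 8 libraries held 44.5% of the variance, with alcohol replicates 2 and 4 at 52.9 and 39.6 and the other 6 libraries between -31.1 and -6.48. Alcohol replicate 2 lay below all 3 HFD libraries in 5050 of 12435 genes and replicate 4 in 3644, against 1001 to 1710 in replicates 1, 3 and 5. Above all 3 HFD libraries, alcohol replicates 1 to 5 lay in 35.4%, 19.3%, 41.7%, 26.8% and 43.8% of genes, and below them in 12.6%, 40.6%, 8.05%, 29.3% and 13.8%.

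No gene passed the test for a diet difference. Limma called 0 of 12435 genes (0%) at an adjusted p under 0.05, with a smallest adjusted p of 0.778, and limma-voom on the recovered counts also called 0. At an unadjusted p under 0.05 limma gave 733 genes and limma-voom 703. The limma genes split into 637 with a higher mean on alcohol (5.12% of genes tested) and 96 with a lower one (0.772%). After median-ratio rescaling of the libraries there were 584, split into 287 and 297, so the higher share moved from 86.9% to 49.1%. All 5 alcohol libraries lay above all 3 HFD libraries in 445 genes (3.58%) and below them in 48 (0.386%), or 186 and 161 after rescaling. The median log2 fold change over all genes was 0.05, and 60.6% of genes had a value above 0. When alcohol replicates 2 and 4 were left out these were 0.13 and 75.9%, and with HFD replicate 3 left out too 0.11 and 69.2%, so values without those libraries are to be read against these higher levels. Since nothing passed, the genes below are described by their levels and none is said to have changed.

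Leading genes were taken as up to 12 in each direction with the largest log2 fold change at an unadjusted p under 0.05, at least 5 CPM as the higher mean and diets that did not overlap. Hilpda (chr6:29272488-29275446, GRCm38 as in all positions below), a lipid droplet protein that inhibits triglyceride breakdown, was at 6.00, 14.4 and 6.52 CPM on HFD and at 3.21, 2.65, 5.49, 1.69 and 2.42 CPM on alcohol, a log2 fold change of -1.25 ± 0.37. Dusp6 (chr10:99263231-99267489), a phosphatase that inactivates the kinase ERK, had narrow groups. Dusp6 was at 145, 135 and 116 CPM on HFD and at 82.9, 84.0, 87.7, 62.6 and 99.0 CPM on alcohol, a log2 fold change of -0.67 ± 0.16 and an adjusted limma p of 0.778. Hspb1, a small heat shock protein, had means of 41.5 ± 8.42 CPM (n = 3) on HFD and 26.1 ± 4.50 (n = 5) on alcohol. These 3 genes had no overlap between the diets, and their values without alcohol replicates 2 and 4 were -1.04, -0.55 and -0.59.

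Gys2 and Bdh1, 2 metabolic enzymes, were also lower in every alcohol library. Gys2 (chr6:142422613-142473109), the liver glycogen synthase, was at 210.3, 240.3 and 272 CPM on HFD and at 199, 141, 198, 149.9 and 159.6 CPM on alcohol. Bdh1 (chr16:31422280-31458901), which interconverts the ketone bodies, was at 266, 314 and 265 CPM on HFD and at 225, 152, 250.5, 176 and 225 CPM on alcohol. Their log2 fold changes were -0.51 ± 0.18 and -0.47 ± 0.14, and -0.37 and -0.27 without alcohol replicates 2 and 4. Other leading genes of this direction were Rab30 (-0.92), a GTPase of the Golgi, Fst (-0.91), the activin-binding protein follistatin, Gramd1b (-0.64), a carrier of sterol to the endoplasmic reticulum, Vps33b (-0.61), a vesicle trafficking protein, the kinase gene Aatk (-0.57) and the secreted phospholipase gene Pla2g12a (-0.41). Of these 6, Gramd1b moved by over 1.5 times, to -0.35, when alcohol replicates 2 and 4 were left out. The rule asked for groups that do not overlap, so their separation is a description and not support.

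Of the leading genes with a higher mean on alcohol, Acacb (chr5:114146535-114250761) had the largest log2 fold change, 1.40 ± 0.39. Acacb encodes acetyl-CoA carboxylase 2, whose product malonyl-CoA holds back fatty acid entry into mitochondria. It was at 25.0, 26.0 and 48.4 CPM on HFD and at 52.1, 148, 58.6, 118 and 81.3 CPM on alcohol. Alcohol replicates 1 and 3 lay just above HFD replicate 3, and replicates 2 and 4 were highest. Without those 2 libraries the Acacb value was 0.97, and its adjusted limma p with all 8 was 0.778. The annotated gene Gm13784 lies antisense within Acacb, and no source used here gives the strand setting of the counting.

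Cyp4a12a (chr4:115299046-115332815), a male-biased fatty acid hydroxylase, was at 169.7, 179 and 47.4 CPM on HFD and at 293, 306, 226, 353 and 194 CPM on alcohol. Its log2 fold change of 1.24 ± 0.36 was 0.43 without alcohol replicates 2 and 4 and HFD replicate 3, the library lowest in it. Zfhx4, a zinc finger and homeobox transcription factor, had means of 24.2 ± 2.18 CPM (n = 3) on HFD and 42.2 ± 9.76 (n = 5) on alcohol. Ogfrl1 was at 10.6 to 12.9 CPM on HFD and 13.8 to 26.8 CPM on alcohol. Fads3, of the fatty acid desaturase family, was at 5.80 to 7.64 CPM on HFD and 10.8 to 17.7 CPM on alcohol. Raet1e, which encodes a ligand of the natural killer receptor NKG2D, had means of 3.14 ± 0.247 CPM (n = 3) on HFD and 6.32 ± 2.12 (n = 5) on alcohol.

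The other leading genes higher on alcohol were Tspyl4 (log2 fold change 1.23), the receptor gene Gpr17 (1.14), the noncoding host of small nucleolar RNAs Snhg11 (1.12), Zc3h3 (0.87), Rps13-ps2 (0.73) and the kinase gene Map3k13 (0.73). Rps13-ps2 is a ribosomal protein pseudogene that may share reads with its parent, so its value is uncertain. Of the 23 leading genes shown, 13 overlap another annotated gene, 11 of them one on the other strand, as Tspyl4, Gpr17, Zc3h3, Zfhx4, Map3k13 and Fst do. Raet1e overlaps its relatives H60b and Raet1d on the same strand. The values of all 13 are uncertain to that extent. Tspyl4 was at 12.1 and 10.8 CPM in alcohol replicates 2 and 4 and at 2.52 to 6.21 CPM in the other 3, and its value was 0.64 without those 2 libraries. In all, 266 of the 12435 genes tested met the rule for leading genes in the higher direction and 22 in the lower. The rule used values that were not rescaled. Genes without overlap, which the rule asks for, were 445 higher and 48 lower before rescaling and 186 and 161 after it.

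**Figure D1:**
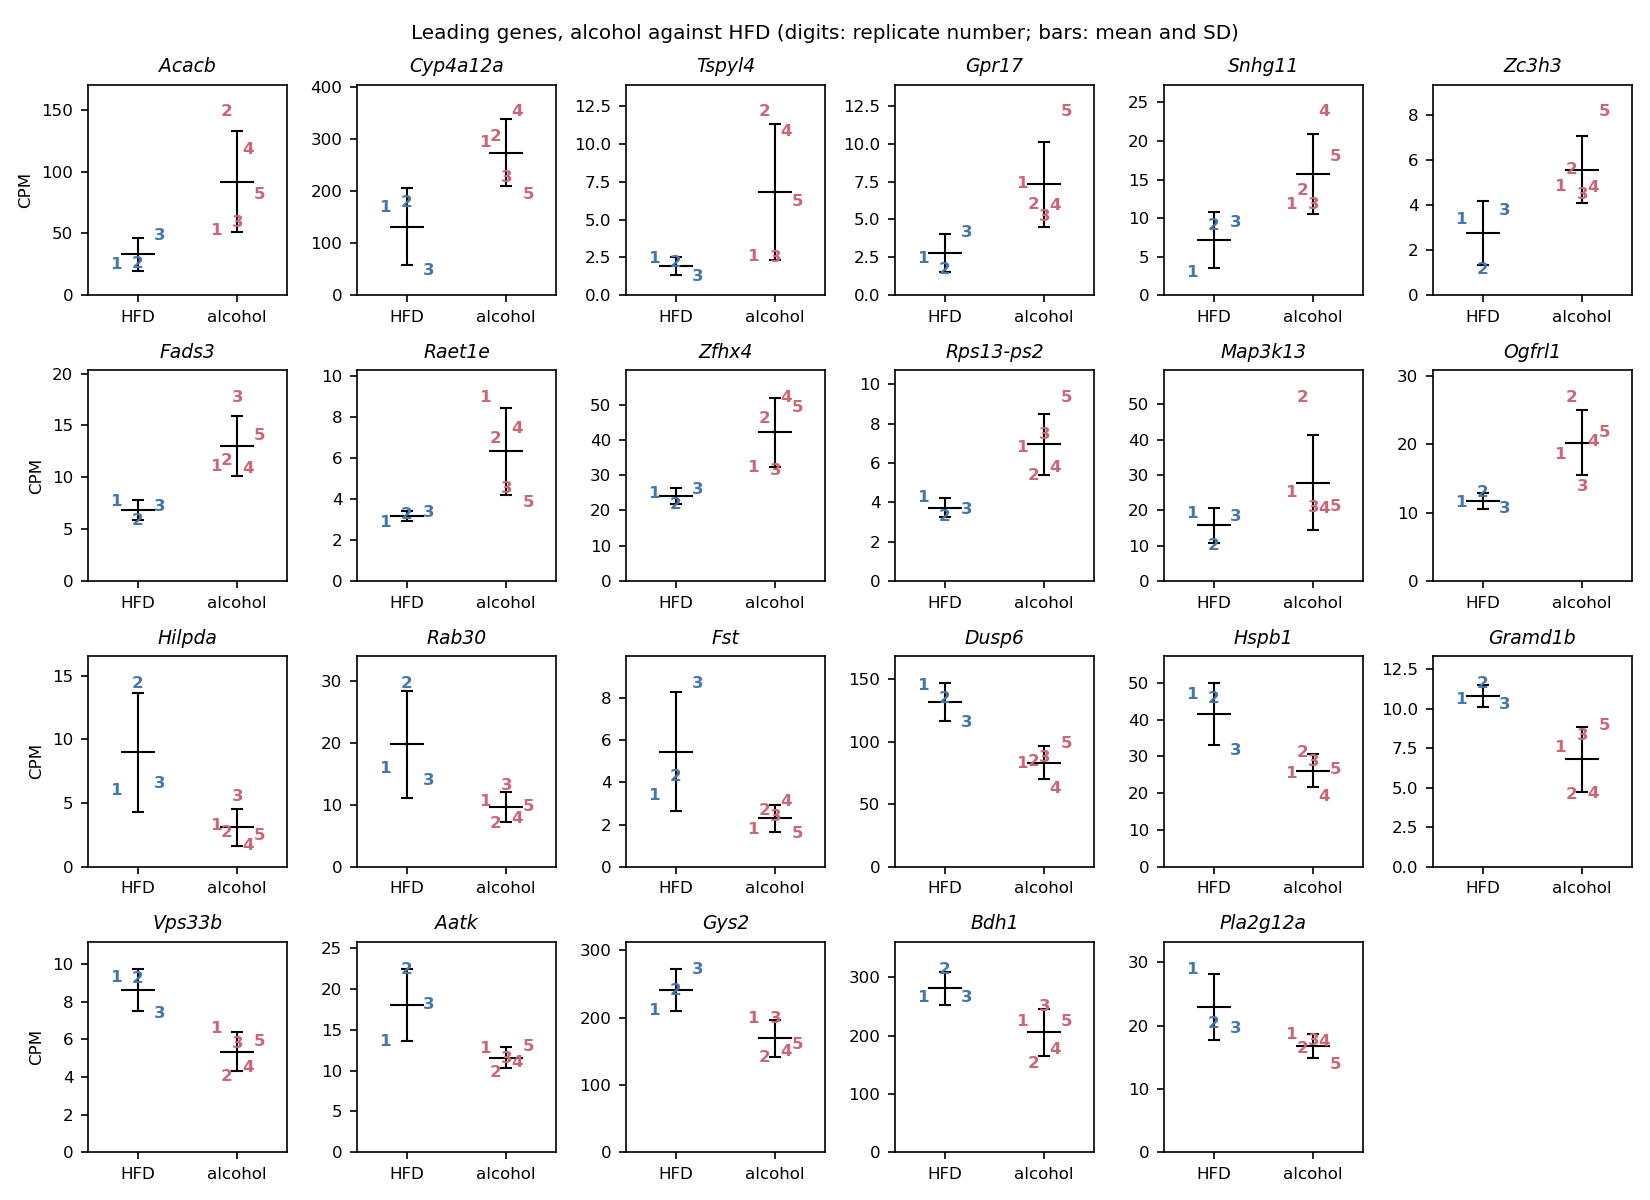
CPM (vertical axes, starting at 0) of 23 leading genes in the 3 HFD and 5 alcohol libraries; digits are replicate numbers and black bars the mean and SD of each group. The groups do not overlap in any panel because the rule chose such genes, and alcohol replicates 2 and 4 are highest in Acacb, at 148 and 118 CPM.

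Genes of cholesterol synthesis, the pathway from acetyl-CoA through mevalonate and squalene to cholesterol, had higher means on alcohol throughout. All 22 members had a log2 fold change above 0, against 60.6% of all genes, and the median was 0.65 against 0.05. No member was called. An unadjusted p under 0.05 with a higher mean was reached by 8 of 22, against 5.12% of all genes, and groups did not overlap in 2, against 3.58%. Alcohol replicates 2 and 4 each exceeded all 3 HFD libraries in 20 of 22 members (90.9%), against 19.3% and 26.8% of all genes. Replicates 1 and 3 did so in 6 and 3 members (27.3% and 13.6%), below their shares of all genes, 35.4% and 41.7%, and replicate 5 in 11 (50%), against 43.8%. Without replicates 2 and 4 the median was 0.16, with 18 of 22 members above 0, close to the 0.13 and 75.9% of all genes in the same setting.

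Promoters of 3 members with a wide gap between those 2 libraries and the rest are printed with 2 elements known from sterol-regulated promoters. The sterol regulatory element is bound by SREBP factors, and the CCAAT box by the factor NF-Y. Each runs 5′ to 3′ from upstream of the annotated start to just past it (RefSeq, GRCm38.p6). Capitals mark the sterol regulatory element, searched as TCACNCCAC and found among the 3 in Hmgcs1 alone, and the CCAAT box, both searched on both strands, so a CCAAT box on the other strand appears as ATTGG. Hmgcs1 lies at chr13:119690101-119690400 on the plus strand, Idi1 at chr13:8885356-8885655 on the plus strand and Cyp51 at chr5:4104648-4104947 on the minus strand.
Hmgcs1: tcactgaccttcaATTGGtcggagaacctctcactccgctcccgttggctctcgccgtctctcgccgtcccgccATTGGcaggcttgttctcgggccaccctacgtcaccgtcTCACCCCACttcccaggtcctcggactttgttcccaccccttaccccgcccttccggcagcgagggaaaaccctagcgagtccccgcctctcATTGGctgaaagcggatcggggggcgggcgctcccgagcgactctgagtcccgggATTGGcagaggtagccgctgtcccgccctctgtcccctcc
Idi1: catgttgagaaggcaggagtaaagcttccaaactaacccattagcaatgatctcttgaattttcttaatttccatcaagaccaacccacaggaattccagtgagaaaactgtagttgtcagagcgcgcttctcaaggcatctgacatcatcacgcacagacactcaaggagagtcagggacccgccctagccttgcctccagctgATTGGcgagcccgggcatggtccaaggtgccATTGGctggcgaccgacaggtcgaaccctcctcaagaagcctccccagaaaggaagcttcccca
Cyp51: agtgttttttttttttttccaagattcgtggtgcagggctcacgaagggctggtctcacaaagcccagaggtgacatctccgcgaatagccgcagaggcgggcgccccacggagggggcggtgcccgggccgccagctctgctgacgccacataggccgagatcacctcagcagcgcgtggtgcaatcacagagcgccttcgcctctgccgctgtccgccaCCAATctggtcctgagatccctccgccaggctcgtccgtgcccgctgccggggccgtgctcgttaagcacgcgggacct
Of the 22 genes, 17 had an entry. The sterol element was found in 1 of the 17 (Hmgcs1) and in 1.44% of all 27025 genes with an entry. A CCAAT box was found in 16 of the 17 and in 41.1% of all genes. Counted by promoter, of which some genes have several, the list had 1 and 16 of 20, against 1.24% and 37.4% of all 32851. A match is no measured binding, and no match says only that these letters are not in this window.

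Hmgcs1, which makes HMG-CoA, was at 119.6, 179 and 209 CPM on HFD and at 154, 660.3, 168, 557 and 249.7 CPM on alcohol, a log2 fold change of 0.85 ± 0.39. Alcohol replicates 1 and 3 lay within the HFD range, replicate 5 just above it and replicates 2 and 4 far above it. Idi1 (chr13:8885501-8892451), the isopentenyl diphosphate isomerase, was at 9.95, 19.4 and 35.3 CPM on HFD and at 25.1, 298, 14.5, 179.8 and 36.7 CPM on alcohol. Its log2 fold change was 1.60 ± 0.73 with an adjusted limma p of 0.838. Cyp51 (chr5:4081145-4104746), the lanosterol demethylase, was at 22.7, 32.9 and 67.5 CPM on HFD and at 29.8, 296, 34.0, 212 and 80.8 CPM on alcohol, with replicates 2 and 4 again highest. Without those 2 libraries the values of Hmgcs1, Idi1 and Cyp51 were 0.18, 0.30 and 0.23.

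Sqle, squalene epoxidase, showed how far the HFD libraries differed as well, at 1.96, 10.3 and 55.3 CPM, with 4.49, 105, 6.83, 60.2 and 24.5 CPM on alcohol. The Sqle log2 fold change of 0.92 ± 0.99 turned to -0.26 without alcohol replicates 2 and 4 and to -0.11 without HFD replicate 1. Lbr, a sterol reductase that is also a nuclear membrane protein, was the steadier case and had no overlap: 13.5 to 16.3 CPM on HFD and 17.8 to 21.3 CPM on alcohol. Sc5d, which makes 7-dehydrocholesterol, also had no overlap, at 234, 265 and 291 CPM on HFD and at 296, 568, 293, 494 and 314 CPM on alcohol. The Lbr value was 0.35 and, without alcohol replicates 2 and 4, 0.33, whereas that of Sc5d went from 0.52 to 0.20.

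Of SREBP2 targets outside the pathway, 12 of 14 had a value above 0 (median 0.18, and 0.16 without alcohol replicates 2 and 4). Insig1, which holds SREBP in the endoplasmic reticulum, was at 106, 200.5 and 193 CPM on HFD and at 152, 640.2, 239, 393 and 239 CPM on alcohol. Sterol efflux genes ran the other way in all 10 members (median -0.18, and -0.01 without alcohol replicates 2 and 4). Abcg5, which pairs with Abcg8 to send sterol into bile, was at 228, 234 and 211 CPM on HFD and at 193, 56.2, 201, 84.1 and 229 CPM on alcohol. Its partner Abcg8 was at 82.9 and 112 CPM in alcohol replicates 2 and 4 and at 157 CPM or more in the other 6. With those 2 left out, Insig1 went from 0.87 to 0.36, Abcg5 from -0.75 to -0.11 and Abcg8 from -0.62 to -0.26.

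**Figure D2:**
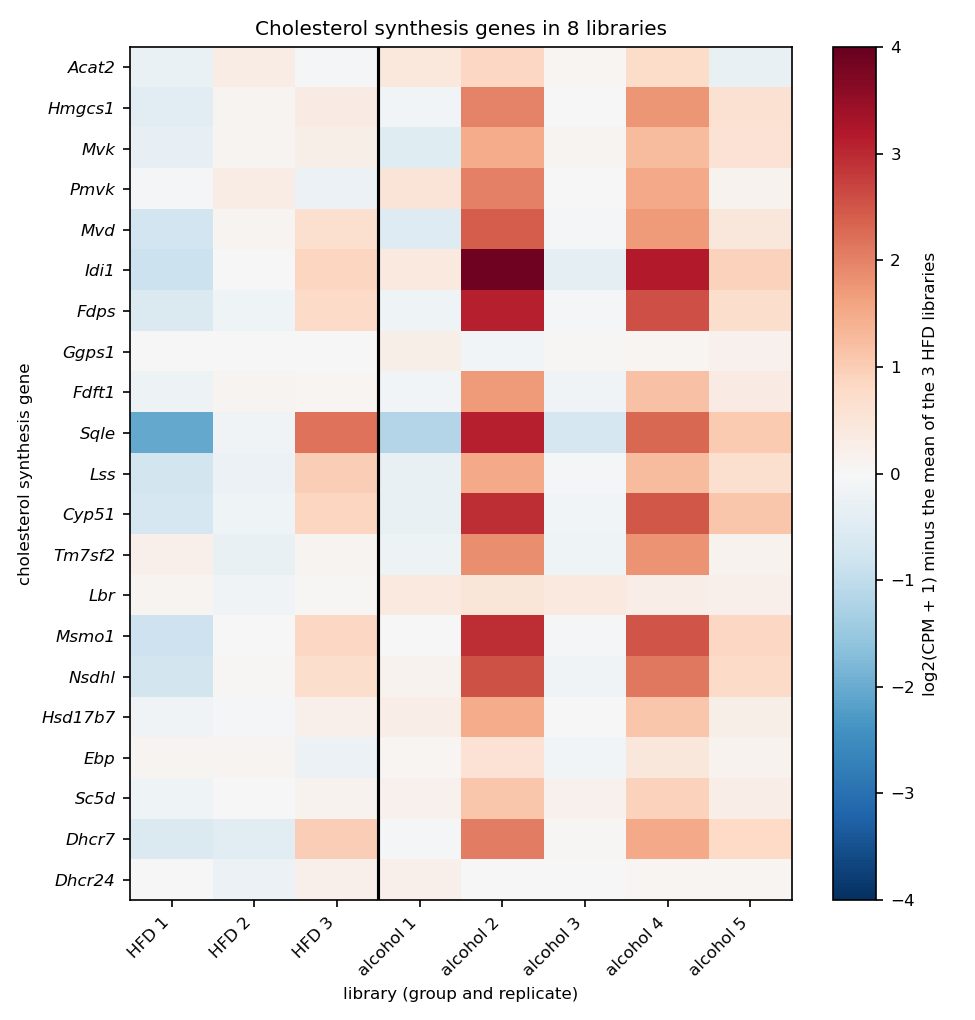
Levels of 21 cholesterol synthesis genes (rows, in pathway order) in the 8 libraries (columns, HFD left of the line); colour gives log2(CPM + 1) minus the mean of the 3 HFD libraries. Alcohol replicates 2 and 4 are red in most rows, as for Idi1 at 298 and 179.8 CPM, while alcohol replicates 1 and 3 resemble HFD replicate 2.

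Fatty acid and triglyceride synthesis genes had a value above 0 in 17 of 25 (median 0.23, and 0.03 without HFD replicate 1). Acly, which makes cytosolic acetyl-CoA from citrate, was at 168, 167 and 232 CPM on HFD and at 181, 471, 229.7, 359 and 224 CPM on alcohol. Fads1, the delta-5 desaturase, had means of 229.9 ± 76.7 CPM (n = 3) and 353 ± 141 (n = 5). Acss2, which makes acetyl-CoA from acetate, was at 62.0, 79.3 and 64.7 CPM on HFD and at 96.2, 246, 71.7, 219 and 87.4 CPM on alcohol. Acss2 was again highest in replicates 2 and 4, with a log2 fold change of 0.88 ± 0.35 that was 0.30 without them and 0.27 when HFD replicate 3 was left out too. Acly went from 0.56 to 0.17 and Fads1 from 0.59 to 0.21 without those 2 libraries.

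Fatty acid oxidation genes and targets of the nuclear receptor PPARA had a value above 0 in 3 of 41 (median -0.27, and -0.11 without alcohol replicates 2 and 4, with 9 of 41 above 0). An unadjusted p under 0.05 was reached by 4 of 41 with a lower mean, against 0.772% of all genes, and by 1 with a higher mean (Cyp4a12a). That share stands for 96 genes before rescaling, which were 297 after it, and the list was counted before rescaling. Ech1, an auxiliary enzyme of beta-oxidation, was at 253, 328 and 284 CPM on HFD and at 289, 201, 257, 225 and 201 CPM on alcohol. Eci1, which isomerises unsaturated intermediates of the same route, had means of 127 ± 33.4 CPM (n = 3) and 97.8 ± 13.2 (n = 5). Vnn1, a PPARA target, was at 76.6, 167 and 131 CPM on HFD and at 79.2, 15.3, 129.9, 43.3 and 84.7 CPM on alcohol, and its value of -1.05 was -0.31 without replicates 2 and 4.

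Lipid droplet coats and lipases had a value above 0 in 2 of 21 measured members (median -0.36, and -0.07 without alcohol replicates 2 and 4). Hilpda and Lipe, 2 of the 21, lay lower on alcohol with no overlap, against 0.386% of all genes, and Lipe had an unadjusted limma p of 0.0721. Over all genes 48 lay so before rescaling and 161 after it, and the 2 were counted before it. Lipe, hormone-sensitive lipase, was at 13.2, 20.4 and 13 CPM on HFD and at 12.3, 8.23, 12.5, 12.1 and 12.3 CPM on alcohol. Plin2, the main droplet coat of hepatocytes, overlapped widely, at 475 to 672 CPM on HFD and 308 to 739 CPM on alcohol. Plin4 was at 226 CPM in alcohol replicate 1 and at 27.3 and 32.9 CPM in replicates 2 and 4, and its value of -0.94 was -0.17 without them. Cidec, which fuses droplets, ranged from 24.3 to 92.8 CPM on HFD, and on alcohol it was at 134, 2.09, 107, 7.87 and 22.6 CPM. Its log2 fold change of -1.15 ± 1.02 turned to 0.34 without replicates 2 and 4. Cidea, of the same family, was at 1.09, 47.7 and 14.5 CPM on HFD and at 13.5, 0.697, 10.8, 4.78 and 1.73 CPM on alcohol, and its value of -1.11 was -0.59 without replicates 2 and 4. Fitm1, which partitions fat into droplets, had means of 64.7 ± 17.5 CPM (n = 3) and 48.3 ± 14.6 (n = 5).

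Cd36, a fatty acid carrier, was at 206, 493 and 368 CPM on HFD and at 399, 46.4, 416, 133 and 201 CPM on alcohol. Its log2 fold change of -0.86 ± 0.54 was -0.05 without alcohol replicates 2 and 4 and 0.02 when HFD replicate 3 was left out too. Apolipoproteins and VLDL assembly genes had a median of -0.08, with 6 of 20 above 0. Apoc1 had no overlap, at 3413, 4287 and 3379 CPM on HFD and 3177, 2696, 2906, 2898 and 2352 CPM on alcohol. Apoc2, the activator of lipoprotein lipase, was at 216, 346 and 841 CPM on HFD and 309, 112, 264, 150.4 and 239.9 CPM on alcohol, and its value of -0.98 was -0.02 without HFD replicate 3 and alcohol replicates 2 and 4. HFD replicate 3 was far the highest in Apoc2 and in Apoa4 (3616 CPM against 189.7 to 1585 in the other 7), and Apoa4's value of -1.40 turned to 0.25 without that library and alcohol replicates 2 and 4.

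No ethanol-oxidising enzyme passed the test. Of 13 measured, 7 had a value above 0, with a median of 0.06 that was -0.01 after rescaling. Adh1, the main liver alcohol dehydrogenase, had means of 1702 ± 175.6 CPM (n = 3) on HFD and 1650.3 ± 213 (n = 5) on alcohol. Cyp2e1, the ethanol-inducible cytochrome, was at 7575, 8755 and 6149.6 CPM on HFD and at 7025, 5488, 5632, 6676 and 6711 CPM on alcohol, so 3 of the 5 alcohol libraries lay within the HFD range and 2 below it. Its log2 fold change was -0.24 ± 0.23 (SE), and RNA levels do not measure the protein, which ethanol is known to stabilise. Aldh2, the mitochondrial acetaldehyde dehydrogenase, had means of 1289.7 ± 166 CPM (n = 3) and 1186 ± 61.9 (n = 5).

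Adh7 was at 8.19, 13.8 and 13 CPM on HFD and at 17.3, 15.1, 13.1, 20.4 and 24 CPM on alcohol, overlapping in 1 library. Aldh3a2, which oxidises long-chain aldehydes, was lowest in alcohol replicates 2 and 4, at 351 and 577 CPM, against 757 to 1667 CPM in the other 6, and its value of -0.60 was -0.10 without them. The lowest unadjusted p of the list, 0.0229 by limma, belonged to Acss2 (adjusted p = 0.834), described above. Cytochromes of families 1 to 3 had a value above 0 in 19 of 36 (median 0.02, and -0.03 after rescaling). Cyp2f2, a periportal cytochrome, had means of 397 ± 104 CPM (n = 3) and 589.6 ± 147 (n = 5), and its value of 0.57 was 0.12 without alcohol replicates 2 and 4 and HFD replicate 3.

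Of the IL-17 pathway, 9 of 16 receptors, ligands and adaptors passed the filter, and the ligands Il17a and Il17f did not. The median was -0.06, with 4 of 9 above 0. Traf6, the ubiquitin ligase below the receptor, had no overlap, at 27.3 to 30.2 CPM on HFD and 32.2 to 40.7 CPM on alcohol, a log2 fold change of 0.27 ± 0.11 with an adjusted limma p of 0.834. Il17rc, the partner subunit, had means of 20.8 ± 3.43 CPM (n = 3) and 19.9 ± 2.22 (n = 5). Il17ra itself had means of 24.5 ± 10.3 CPM (n = 3) and 26.1 ± 8.39 (n = 5).

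IL-17-responsive genes had a value above 0 in 2 of 18 (median -0.50), but 0.01 without alcohol replicates 2 and 4, where 10 of 18 were above 0. Saa1 and Saa2, serum amyloid A acute phase proteins, were 2 of the 3 of its 18 members with a lower mean at an unadjusted p under 0.05, against 0.772% of all genes. Rescaling moved that count over all genes from 96 to 297, and the 3 were counted before it. Saa1 was at 272, 82.1 and 506 CPM on HFD and at 120.3, 24.1, 159, 36.6 and 162 CPM on alcohol. Saa2 was at 223, 45.6 and 269.7 CPM on HFD and at 76.8, 8.93, 109, 15.3 and 97.1 CPM on alcohol. Both genes were lowest in alcohol replicates 2 and 4, HFD replicate 2 overlapped with alcohol, and the close sequence of the pair could split reads between them. Their log2 fold changes were -1.52 ± 0.63 and -1.74 ± 0.74 (SE), and limma gave both an adjusted p of 0.834. The Saa1 value was -0.62 without alcohol replicates 2 and 4 and -0.04 when HFD replicate 3 was left out too, and the Saa2 value was -0.58 and -0.12.

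Lcn2, lipocalin 2 of hepatocytes and neutrophils, was at 130.1, 41.3 and 358 CPM on HFD and at 113, 3.35, 127, 10.8 and 202 CPM on alcohol, and its value of -1.54 turned to 0.19 without alcohol replicates 2 and 4. Cxcl1, a neutrophil chemokine, had means of 18.0 ± 9.62 CPM (n = 3) and 11.1 ± 6.92 (n = 5), and its value of -0.69 was -0.08 without those 2 libraries. Icam1, an adhesion molecule, was at 22 to 48.9 CPM on HFD and at 7.81 and 10.4 CPM in alcohol replicates 2 and 4, and its value of -0.72 was -0.11 without them. Acute phase proteins had a median of -0.32, with 8 of 30 above 0, and -0.11 without them. Of neutrophil markers 4 of 13 passed the filter, Ly6g was at 0 in all 8 libraries, and their summed level was 47.9 to 376 CPM on HFD and 4.18 to 221 CPM on alcohol. Lcn2 made up 70.6% to 95.2% of that sum. The list had a median of -0.39 that turned to 0.01 without HFD replicate 3.

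Macrophage genes moved with alcohol replicates 2 and 4. Markers of monocyte-derived and lipid-associated macrophages had a value above 0 in 1 of 20 (median -0.60), but in 15 of 20 without those 2 libraries (median 0.20), where all genes had a median of 0.13 with 75.9% above 0. Replicates 2 and 4 lay below all HFD libraries in 18 and 19 of the 20 (90% and 95%, against 40.6% and 29.3% of all genes), and replicate 3 lay above all of them in 13 (65%, against 41.7%). The summed level of the 20 was 21730.4 to 26909 CPM on HFD and 14790.1 to 23682 CPM on alcohol, but Apoe, which hepatocytes also make, held 92.4% to 97.1% of it. The other 19 summed to 944 to 1373 CPM on HFD, to 422 and 491 CPM in alcohol replicates 2 and 4 and to 969 to 1792 CPM in the other 3, and none was at 0 in every library. In bulk liver, fewer cells of a type and less RNA per cell cannot be told apart. The part of macrophage content in the lipid and sterol values of those 2 libraries was not tested.

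Mmp12, a macrophage elastase, was at 67.9, 14.2 and 26.2 CPM on HFD and at 42.0, 0, 86.7, 1.27 and 18.3 CPM on alcohol. Tyrobp, a signalling adaptor of myeloid cells, was at 3.49 and 5.90 CPM in alcohol replicates 2 and 4 and at 19.8 to 47.4 CPM in the other 6. Clec7a, the receptor for fungal glucans, was at 1.53 and 4.92 CPM there and at 19.3 to 42.9 CPM in the others. The log2 fold changes of Mmp12 and Tyrobp, -1.47 and -0.74, turned to 0.45 and 0.32 without the 2 libraries, and that of Clec7a went from -1.34 to -0.21.

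Markers of Kupffer cells, the resident macrophages, were split within the alcohol group. Their median was -0.10, with 9 of 20 above 0, and it turned to 0.57 without alcohol replicates 2 and 4, to 0.12 without replicate 2, to 0.16 without replicate 4 and to 0.01 without HFD replicate 2. Their summed level was 1338 to 1838 CPM on HFD and 1020.2 to 2662 CPM on alcohol. That sum includes the complement gene C6, at 393, 158 and 156 CPM on HFD and 252, 488, 272, 379 and 295 CPM on alcohol. Among alcohol libraries C6 was highest in replicates 2 and 4, where the sum was 1135 and 1020.2 CPM. C1qa was at 83.2, 84.0 and 71.3 CPM on HFD and at 104, 25.9, 121, 26.0 and 75.8 CPM on alcohol. Cd163, the haptoglobin-haemoglobin scavenger receptor, did not follow this split, at 5.68, 21.3 and 26.8 CPM on HFD and 32.6, 31.0, 39.9, 16.6 and 19 CPM on alcohol. MHC class II genes had a value above 0 in 1 of 8 (median -0.66), and in 8 of 8 without the 2 libraries (median 0.17, near the 0.13 of all genes). H2-Ab1 was at 112, 37.8 and 38.4 CPM on HFD and at 59.8, 13.4, 89.8, 13.6 and 35.5 CPM on alcohol, and H2-Eb1 had means of 61.5 ± 41.6 CPM (n = 3) and 43.8 ± 35.0 (n = 5).

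Interferon-stimulated genes had a median of -0.15, which turned to 0.38 without alcohol replicates 2 and 4, to 0.18 without replicate 2 and to 0.10 without HFD replicate 1. Alcohol replicate 5 lay above all HFD libraries in 30 of these 37 genes (81.1%, against 43.8% of all genes), and replicate 2 below all of them in 33 (89.2%, against 40.6%). T cell and NK cell markers, 13 of 25 measured, had a median of 0.02, and -0.01 after rescaling. Stellate cell and fibrosis genes had a value above 0 in 3 of 31 (median -0.32), and the median was 0.11 without the 2 libraries, near the 0.13 of all genes. Col1a1, a chain of type I collagen, was at 63.0, 6.66 and 16.4 CPM on HFD and at 24.2, 2.93, 15.9, 1.12 and 16.4 CPM on alcohol, and its value of -1.17 was -0.07 without replicates 2 and 4. Col3a1 was at 266, 78.9 and 95.3 CPM on HFD and at 142, 30.7, 193, 23.8 and 78.7 CPM on alcohol. Tagln, a contractile protein, had means of 9.55 ± 1.70 CPM (n = 3) and 6.03 ± 2.46 (n = 5), and its value of -0.65 was -0.30 without the 2 libraries.

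**Figure D3:**
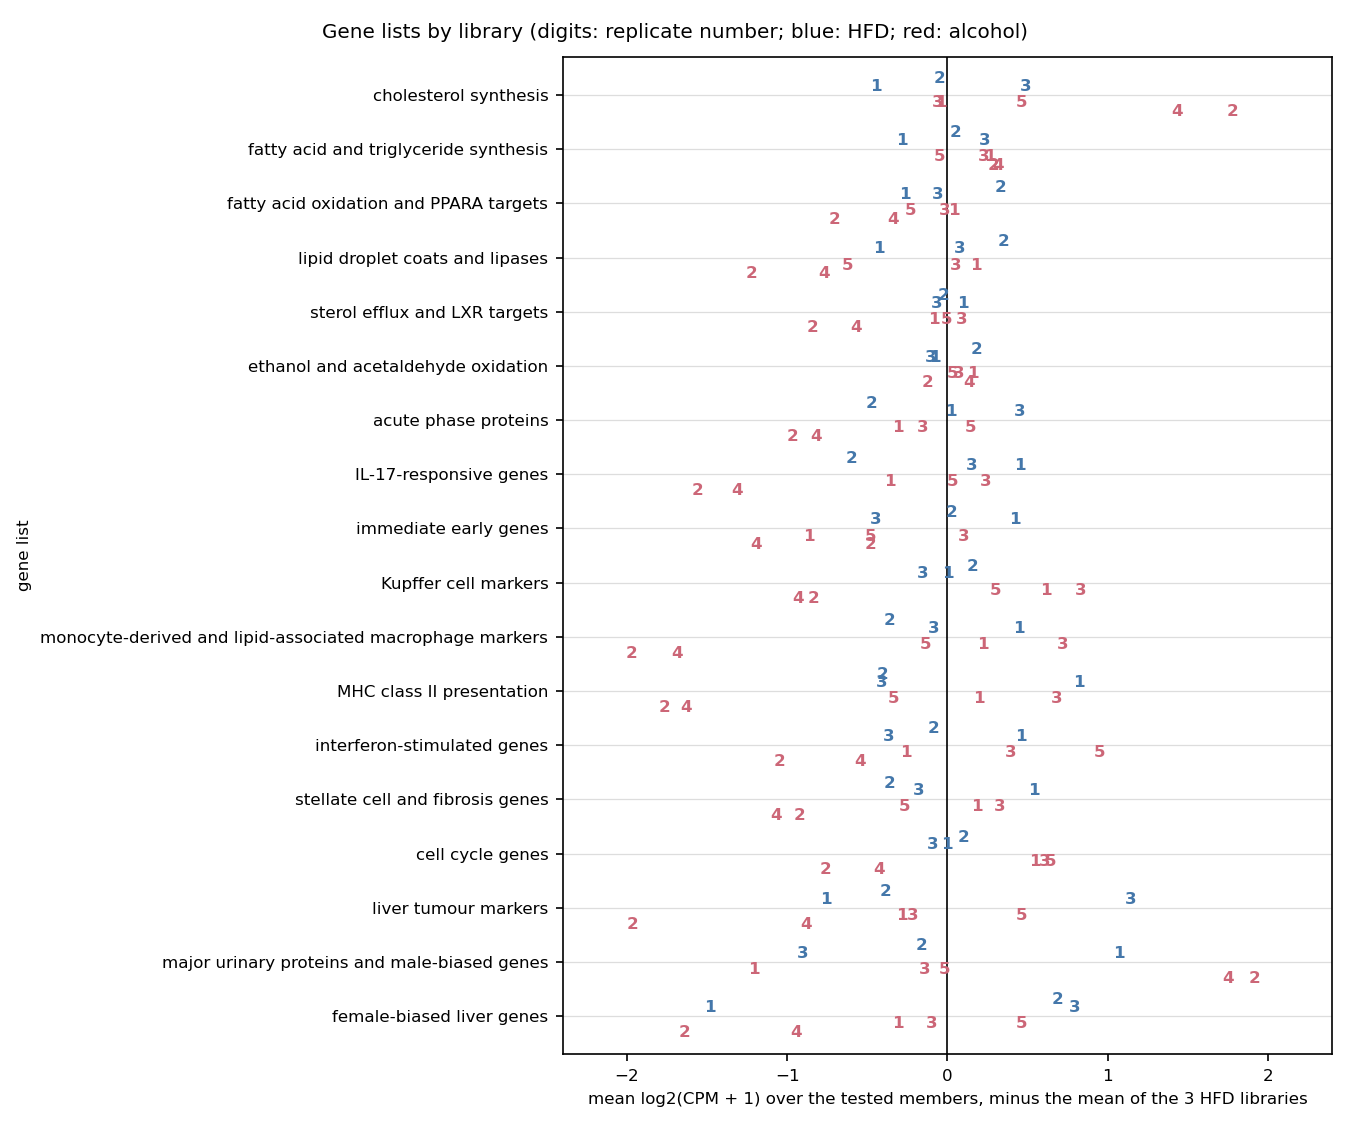
Mean log2(CPM + 1) over the tested members of 18 gene lists (rows) in each library, minus the mean of the 3 HFD libraries (horizontal axis); digits are replicate numbers, blue for HFD and red for alcohol. Alcohol replicates 2 and 4 lie to the right in cholesterol synthesis and male-biased genes and to the left in macrophage, MHC class II and fibrosis lists.

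Immediate early genes, which respond within minutes to growth factors and stress, had a value above 0 in 3 of 20 (median -0.60). They kept a median of -0.36 without alcohol replicates 2 and 4 and of -0.56 when HFD replicate 3 was left out too. Btg2, an antiproliferative gene and p53 target, was at 93.0, 203 and 123 CPM on HFD and at 35.4, 48.1, 115, 18.8 and 42.3 CPM on alcohol. In Btg2 4 of 5 alcohol libraries were below all HFD libraries. Its log2 fold change was -1.58 ± 0.47 (SE), with an adjusted p of 0.778 by limma. Ier3, a stress-induced survival gene, was at 7.42, 2.58 and 6.94 CPM on HFD and at 1.44, 1.26, 4.90, 0.703 and 2.76 CPM on alcohol, and its value of -1.09 was -0.71 without replicates 2 and 4. Gadd45b, a stress sensor, was at 8.84, 8.17 and 1.45 CPM on HFD and at 1.92, 1.81, 5.49, 0.562 and 1.21 CPM on alcohol. Fosl2, an AP-1 factor, had means of 25.4 ± 9.13 CPM (n = 3) and 15.7 ± 5.40 (n = 5), and its value of -0.68 was -0.35 without those 2 libraries.

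p53 targets had a median of -0.22 (5 of 25 above 0), and 0.03 without alcohol replicates 2 and 4. Unfolded protein and integrated stress response genes had a median of 0.12 (24 of 33 above 0), and -0.08 without those 2. Chac1, a glutathione-degrading target of ATF4, went the other way from its list, at 6.22, 11.4 and 8.28 CPM on HFD and 4.01, 4.18, 6.98, 1.55 and 3.80 CPM on alcohol, a log2 fold change of -0.97 ± 0.38. Ppp1r15a, the phosphatase subunit that ends the integrated stress response, had means of 16.3 ± 4.50 CPM (n = 3) and 11.3 ± 1.67 (n = 5). Cell cycle genes had a median of 0.12 (27 of 39 above 0), which was 0.65 without alcohol replicates 2 and 4, -0.01 without replicate 1, -0.04 without replicate 3 and -0.01 without replicate 5. Alcohol replicates 1, 3 and 5 lay above all HFD libraries in 82.1%, 76.9% and 79.5% of the 39, against 35.4%, 41.7% and 43.8% of all genes. Replicates 2 and 4 lay below all of them in 79.5% and 69.2%, against 40.6% and 29.3% of all genes. Tk1, thymidine kinase 1, had means of 10.6 ± 3.13 CPM (n = 3) and 15.4 ± 4.10 (n = 5). Liver tumour markers had a median of -0.47 (4 of 17 above 0), and 0.03 without HFD replicate 3.

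Sex-biased genes, which in mouse liver follow the pulse pattern of growth hormone, divided libraries within both diets. The mean log2(CPM + 1) of 31 major urinary protein and male-biased genes was 8.17, 6.94 and 6.20 in HFD replicates 1 to 3 and 5.90, 9.02, 6.96, 8.86 and 7.08 in alcohol replicates 1 to 5. The list's median log2 fold change was 0.42 (25 of 31 above 0), and it turned to -0.35 without alcohol replicates 2 and 4 and to -0.08 without HFD replicate 3. Female-biased genes were lowest where those means were highest, with means of 2.04, 4.21 and 4.31 on HFD and 3.21, 1.88, 3.42, 2.57 and 3.99 on alcohol (median -0.45, 1 of 13 above 0, and 0.09 without HFD replicate 3). Cyp2b13, a female-biased cytochrome, was at 1.75, 52.6 and 12.9 CPM on HFD and at 2.57, 0.139, 5.95, 0.984 and 3.98 CPM on alcohol, and its value of -2.04 was -1.35 without replicates 2 and 4. Moxd1, a male-biased monooxygenase-like gene, was at 12, 0 and 0.207 CPM on HFD and at 0, 166, 0.148, 116 and 2.59 CPM on alcohol, a presence in alcohol replicates 2 and 4 far above the other 6.

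Igf1 (chr10:87858265-87937042), the growth factor that liver releases under growth hormone, had no overlap, at 679.9, 540.2 and 453 CPM on HFD and at 798, 945, 703, 722 and 1127 CPM on alcohol. Its log2 fold change was 0.62 ± 0.17 with an adjusted limma p of 0.778, and alcohol replicates 5 and 2 were its highest libraries. Without alcohol replicates 2 and 4 the Igf1 value was 0.64. Igfbp1, an insulin-suppressed IGF-binding protein, was at 160.3, 424 and 778 CPM on HFD and at 97.5, 198, 223, 134 and 69.0 CPM on alcohol, a log2 fold change of -1.50 ± 0.54. The growth hormone and IGF list as a whole had a median of 0.01, and -0.06 after rescaling. Cps1, the entry enzyme of the urea cycle, was at 4776, 3831 and 4884 CPM on HFD and at 7379, 8085, 4822, 6830.0 and 5590.4 CPM on alcohol. The urea cycle and periportal list had a median of 0.14 (18 of 24 above 0) that was -0.01 without alcohol replicates 2 and 4. Wnt-dependent pericentral genes had a median of -0.10 (7 of 22 above 0), and 0.09 without HFD replicate 1. Hepatocyte markers had a median of -0.03, and the other 20 of 50 lists had medians between -0.63 and 0.23 with 0 members called.

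The diet difference was tested against that in WT non-tumour liver (5 alcohol and 3 HFD libraries) and in labelled tumours (4 and 3). Limma called 0 of 12435 genes (0%) for a difference between genotype labels, with 511 at an unadjusted p under 0.05, of which 457 (3.68%) were more positive and 54 (0.434%) more negative in the labelled libraries. It called 0 (0%) for a difference between non-tumour liver and tumours, with 580 at an unadjusted p under 0.05, of which 397 (3.19%) were more positive and 183 (1.47%) more negative in non-tumour liver. After rescaling these unadjusted counts were 357, with 145 more positive, and 702, with 316 more positive. Rescaling moved the median difference between labels over all genes from 0.13 to 0.00, so values of that difference are to be read against a median of 0.13. The 3 diet comparisons share no control libraries.

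Of the 12 leading genes higher on alcohol, 5 had the same direction in WT and 6 in labelled tumours. Of the 11 lower ones described, 6 did in each. Over all genes the median log2 fold change was -0.08 in WT, so the WT directions are to be read against that. Acacb ran the other way in WT, with means of 64.0 ± 25.5 CPM (n = 3) on HFD and 46.6 ± 17.2 (n = 5) on alcohol. The difference between labels in Acacb was 1.85 ± 0.55 (SE), with an adjusted p of 0.966 by limma. In labelled tumours Acacb had means of 64.1 CPM on HFD and 28.3 CPM on alcohol. Raet1e (difference between labels 1.42 ± 0.37) and Aatk (-0.97 ± 0.29) also had opposite directions in the 2 labels, with adjusted p of 0.966 by limma. The leading genes were chosen for a large diet value in the labelled libraries. That value is part of the difference between labels and of that from tumours, so the size of either is a description and not support. Fst had a lower mean on alcohol in WT too, 9.60 ± 10.1 CPM (n = 3) on HFD and 3.35 ± 0.635 (n = 5) on alcohol, where the diets overlapped. Dusp6 had WT means of 116 ± 20.4 CPM (n = 3) and 109 ± 18.8 (n = 5).

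**Figure D4:**
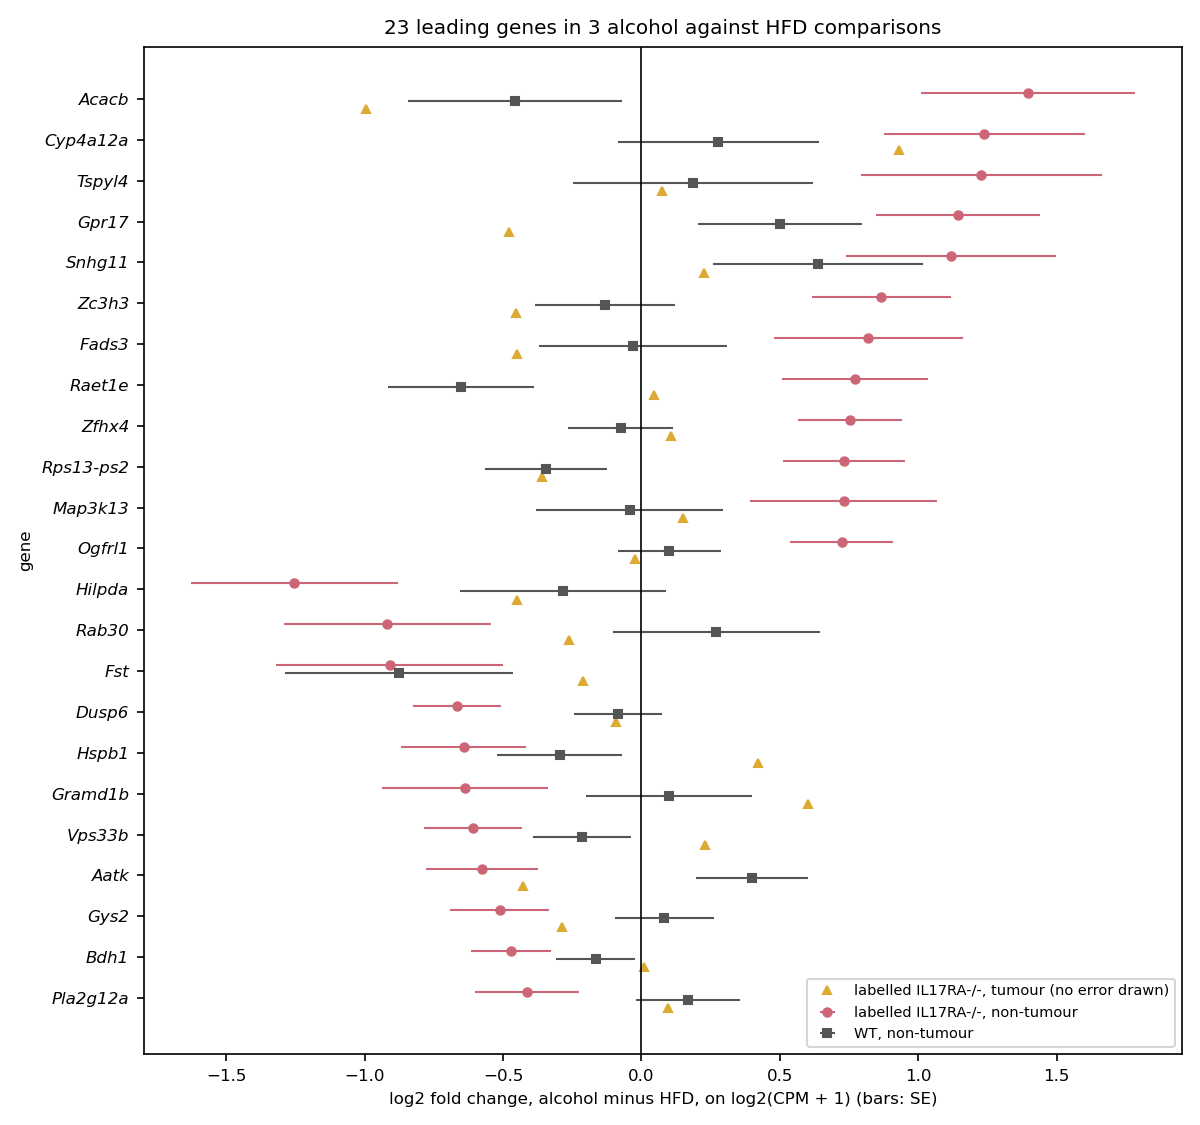
Log2 fold changes of alcohol against HFD (horizontal axis, on log2(CPM + 1)) of 23 leading genes in labelled non-tumour liver (circles), WT non-tumour liver (squares) and labelled tumours (triangles, no error drawn); bars on circles and squares are SE. Fst lies left of 0 in all 3, at -0.91, -0.88 and -0.21, whereas Acacb lies at 1.40 in labelled non-tumour liver and left of 0 in the others.

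Among gene lists, cholesterol synthesis had a median of -0.24 in WT (6 of 22 above 0) against 0.65 in the labelled libraries. All genes had medians of -0.08 in WT and 0.05 in the labelled libraries. The median difference between labels was 0.87, and 0.40 without alcohol replicates 2 and 4, where all genes had 0.21. An unadjusted p under 0.05 was reached by 2 of 22 members, each more positive, against 3.68% of all genes. Abcg5 and Abcg8 were reversed in sign, with differences between labels of -1.33 ± 0.58 and -1.24 ± 0.50 that were -0.70 and -0.88 without those 2 libraries. Fads1 and Acly differed by 1.26 ± 0.44 and 0.89 ± 0.39, and by 0.88 and 0.50 without them. Igfbp1 and Btg2 differed by -1.99 ± 0.76 and -1.67 ± 0.67. Chac1 had the largest gap of these, -2.31 ± 0.53, with a WT log2 fold change of 1.34, and its adjusted limma p was 0.966. These genes were named for a small p in the labelled libraries, so the size of their differences is no support either. Cell cycle genes had a median of -0.79 in WT, where 1 of 39 was above 0, and a median difference between labels of 0.91, and 1.42 without alcohol replicates 2 and 4. Of its members 7 of 39 were more positive at an unadjusted p under 0.05, against 3.68% of all genes. MHC class II and monocyte-derived macrophage lists had negative medians in both labels, -1.41 and -0.69 in WT against -0.66 and -0.60. The median differences of these 2 lists, 0.78 and 0.08, were 1.52 and 1.08 without alcohol replicates 2 and 4. In every such value only labelled libraries were left out and the WT side stayed whole. The 2 sides were thus not treated alike, and a wider gap between labels there is no support for a difference. None of these list differences was tested as a list.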

How the data were processed

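The authors deposited 1 table of CPM for all libraries. Libraries were polyA-selected and strand-specific (TruSeq), per the labels' protocols, and STAR 2.5.1a, RSEM 1.3.0 and GRCm38 stand in the notes on processing given by the submitters (per the labels). No source used here gives the filters, annotation or strand setting of counting. CPM steps gave back counts for 84.5% to 86.4% of values (whole within 0.002 counts), the rest being hundredths of a count as RSEM estimates give. Depth came to between 4653423 and 9660583 counts, and a floor of 3 counts is 0.311 to 0.645 CPM, for counting error only. Of 22187 IDs, 534 had no symbol and held 0.138% of CPM.

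The 16 non-tumour libraries were fitted together with limma 3.58.1 (R 4.3.3, trended variance) on log2(CPM + 1), for genes that reached 1 CPM in 3 or more of the 8 compared libraries, with Benjamini-Hochberg adjustment over all genes and a two-sided threshold of 0.05. A fold change on this scale understates the change of low genes. The fit was tested on simulated data. The difference between labels was a contrast of that fit, and the difference from tumours a contrast of all 29 libraries. List medians carry no test. Leading genes were up to 12 each way with the largest log2 fold change at an unadjusted p under 0.05, a higher group mean of 5 CPM or above, no overlap and an established symbol. The results of some genes are not reported here. Up to 4 genes of each list, by smallest p, and members of 4 lists could also be named. Members and lists were chosen with earlier results of these data known. Alternatives were other pseudocounts (0.1 and 0.5), no filter, a 5 CPM filter, median-ratio rescaling, the 8 libraries alone, limma-voom, a replicate block and left-out libraries.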

Additional observations from a re-analysis of the deposited data

Results flagged for a closer look

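Dixon's test on the 5 alcohol libraries was run for 88 genes, and a gap over 0.71 of the group's range was found in 5, where chance gives about 1 in 20. Map3k13 was at 51.9 CPM in alcohol replicate 2, with 25.0 CPM the nearest other value. Lipe was at 8.23 CPM in alcohol replicate 2, and the next library was at 12.1 CPM. Gadd45b was at 5.49 CPM in alcohol replicate 3 against 1.92 CPM next. Afp and Gpc3, both liver tumour markers, stood out in alcohol replicate 5, at 32.4 CPM for Afp (next 8.02) and 27.8 CPM for Gpc3 (next 6.04).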

How the results depend on the processing

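Limma called 0 genes for diet under every alternative run, and limma-voom called 0. At an unadjusted p under 0.05 limma gave 733 genes and limma-voom 703, with 942 without the filter, 638 at 5 CPM, 584 after rescaling, 532 from the 8 libraries alone, 953 without alcohol replicates 2 and 4 and 773 when HFD replicate 3 was left out too. Leaving out 1 library at a time gave 462 to 1007 (462 without HFD replicate 2). The replicate block gave 0 calls, 315 genes at an unadjusted p under 0.05 and a smallest adjusted p of 0.151, the lowest value that any of the 83 genes described reached over 18 settings. Same-numbered libraries did not deviate together (correlations -0.15, -0.04 and -0.12, against -0.19 to 0.11 in the other combinations). So few values cannot settle whether libraries were paired, and the numbers were not taken as pairs. For the difference between labels the unadjusted count of 511 was 1376 without alcohol replicates 2 and 4, where the smallest adjusted p was 0.119, and 257 with the replicate block. The libraries left out were labelled ones, and no WT library was left out beside them.

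Of 30 list medians and 83 genes, those below turned in sign or moved beyond the spread between libraries, and for each the cause was not tested. List medians near 0 in the main setting crossed 0 too. Leaving out 1 library at a time gave -0.13 to 0.21 (cytochromes), -0.19 to 0.20 (T and NK cells) and -0.033 to 0.16 (ethanol oxidation). It also gave -0.045 to 0.19 (growth hormone and IGF) and -0.14 to 0.029 (hepatocyte markers). With the replicate block the median of IL-17 receptors and adaptors was 0.0094. Without alcohol replicates 2 and 4, list medians were -0.13 (apolipoproteins), 0.00505 (IL-17-responsive genes), 0.032 (p53 targets), -0.085 (unfolded protein response), 0.57 (Kupffer cell markers), 0.20 (monocyte-derived macrophages), 0.17 (MHC class II presentation), 0.25 (neutrophil markers), 0.38 (interferon-stimulated genes), 0.11 (stellate cell genes), 0.045 (liver tumour markers), -0.35 (male-biased genes), 0.019 (female-biased genes) and -0.014 (urea cycle). Without alcohol replicates 2 and 4, genes had -0.26 (Sqle), 0.34 (Cidec), 0.19 (Lcn2), 0.45 (Mmp12), 0.32 (Tyrobp), 0.073 (H2-Ab1), 0.18 (H2-Eb1), 0.036 (Col3a1) and 0.31 (C1qa). Without alcohol replicates 2 and 4 and HFD replicate 3, list medians were 0.017 (sterol efflux), 0.00676 (IL-17-responsive genes), 0.14 (acute phase proteins), -0.056 (unfolded protein response), 0.41 (Kupffer cell markers), 0.32 (monocyte-derived macrophages), 0.83 (neutrophil markers), 0.17 (interferon-stimulated genes), 0.000932 (stellate cell genes), 0.66 (liver tumour markers), -0.79 (male-biased genes), 0.51 (female-biased genes) and -0.23 (Wnt-dependent pericentral genes). Without alcohol replicates 2 and 4 and HFD replicate 3, genes had 0.52 (Cidec), 0.015 (Cd36), 0.25 (Apoa4), 0.95 (Lcn2), 0.20 (Cxcl1), 0.37 (Mmp12), 0.23 (Tyrobp) and 0.23 (C1qa). With the replicate block the median was -0.14 (apolipoproteins) and 0.12 (Kupffer cell markers). After rescaling the median was -0.15 (apolipoproteins). With no filter the median was 0.000408 (neutrophil markers). Leaving out 1 library at a time, ranges were 0.031 to 0.27 (fatty acid synthesis), -0.12 to -0.016 (apolipoproteins), -0.22 to 0.16 (Kupffer cell markers), -0.59 to 0.015 (neutrophil markers), -0.36 to 0.18 (interferon-stimulated genes), -0.78 to 0.026 (liver tumour markers), -0.039 to 0.32 (cell cycle genes), -0.083 to 0.98 (male-biased genes), -1.29 to 0.095 (female-biased genes), -0.29 to 0.088 (Wnt-dependent pericentral genes) and -0.11 to 2.02 (Sqle).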
